A study of Arabidopsis thaliana with 72 samples.

Results

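The genes described here encode 5 enzymes that reduce reactive carbonyls: OPR1 (AT1G76680), OPR2 (AT1G76690), AER (AT5G16970), AKR4C8 (AT2G37760) and AKR4C9 (AT2G37770). They were taken from the deposited expression table by these identifiers, and all 5 were among its 22884 genes. The seedlings were Arabidopsis thaliana aged 14 days, and no genotype other than the species was labelled. Each plate received 8 mL of 21 μM t-chalcone, a phytotoxic plant compound, or 0.1% ethanol (EtOH) as the control, at 7 h after lights on. Shoots and roots were taken with either treatment at 5 times (1, 3, 6, 12 or 24 h), and with EtOH also at 0 h, with 3 libraries per group. The 6 columns labelled untreated at 0 h were identical to the 6 EtOH columns at 0 h, so each pair was counted once and 66 libraries remained.

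Reactive carbonyls such as unsaturated aldehydes and ketones arise when membrane lipids are oxidised, and they attach to proteins through their activated double bond. Plants remove them by reducing either that double bond or the carbonyl group with NADPH, or by oxidising the aldehyde to an acid. t-Chalcone is itself an unsaturated ketone. OPR1 and OPR2 are cytosolic flavin enzymes related to the peroxisomal reductase OPR3, which makes the jasmonate precursor, and they act on unsaturated carbonyls but contribute little to jasmonate synthesis. AER, the alkenal reductase, saturates the double bond of unsaturated aldehydes and ketones. AKR4C8 and AKR4C9 are aldo-keto reductases that turn aldehydes into alcohols, and AKR4C9 is placed in the chloroplast. Several detoxification genes are controlled through TGACG-type promoter elements, which TGA transcription factors bind with their partner SCL14.

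Both family pairs are tandem genes in the RefSeq annotation of TAIR10.1, whose nuclear chromosomes are those of TAIR10, the build in the submitters' processing notes. OPR1 lies at chr1:28776626-28778837 and OPR2 at chr1:28778622-28780483, both on the plus strand, so that the end of OPR1 overlaps the start of OPR2 by 216 bases. AKR4C8 lies at chr2:15831656-15833921 and AKR4C9 at chr2:15834766-15837001, also on the plus strand, with 844 bases between them. AER lies on the minus strand at chr5:5575973-5578086, in a row of similar reductase genes.

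**Figure D1:**
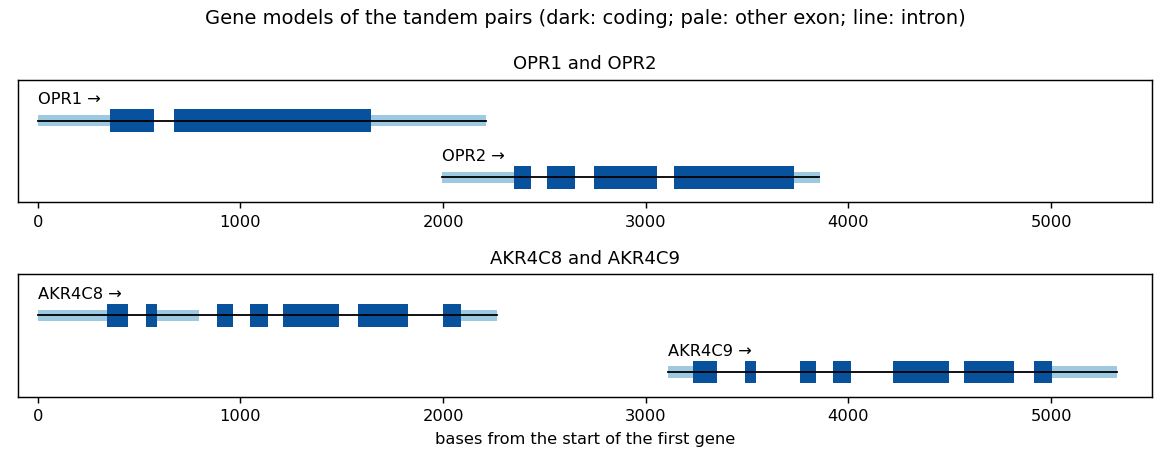
Gene models of the OPR1 and OPR2 pair and of the AKR4C8 and AKR4C9 pair, plotted as bases from the start of the first gene, with coding parts dark, other exons pale and introns as lines. The OPR models overlap by 216 bases outside their coding parts, whereas 844 bases separate the AKR models.

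The 250 bases before the annotated gene start are shown for OPR1, AER and AKR4C9, because these genes showed the highest early differences in roots and because their windows meet no other gene. Capitals mark the letters TGACG or its reverse complement CGTCA.
OPR1, chr1:28776376-28776625, plus strand: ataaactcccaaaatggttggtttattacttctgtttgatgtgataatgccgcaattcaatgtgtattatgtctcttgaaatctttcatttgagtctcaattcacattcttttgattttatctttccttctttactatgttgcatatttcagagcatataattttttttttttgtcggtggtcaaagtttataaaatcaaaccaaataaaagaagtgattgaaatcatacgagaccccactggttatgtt
AER, chr5:5578087-5578336, minus strand: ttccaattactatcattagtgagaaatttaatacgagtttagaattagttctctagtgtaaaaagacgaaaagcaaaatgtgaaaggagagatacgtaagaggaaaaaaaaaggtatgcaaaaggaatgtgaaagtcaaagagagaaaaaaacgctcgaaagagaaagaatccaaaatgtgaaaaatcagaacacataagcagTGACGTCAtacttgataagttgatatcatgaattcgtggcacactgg
AKR4C9, chr2:15834516-15834765, plus strand: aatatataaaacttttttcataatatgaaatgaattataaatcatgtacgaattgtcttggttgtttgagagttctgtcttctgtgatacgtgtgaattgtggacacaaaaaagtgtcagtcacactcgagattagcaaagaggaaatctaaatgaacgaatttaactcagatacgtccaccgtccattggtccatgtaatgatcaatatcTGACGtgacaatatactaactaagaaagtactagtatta
In the AER window both orientations of the motif overlap in the palindrome TGACGTCA. AKR4C9 holds 1 copy of TGACG, and no copy was found in the windows of OPR1, OPR2 or AKR4C8. Of 27443 protein-coding genes, 18.6% hold TGACG on either strand in the same 250 bases and 0.503% hold TGACGTCA. These matches describe the letters only.

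Near-identical copies bear on what the counts of these genes mean. The coding sequences of OPR1 (1194 bases in its longest form) and OPR2 (1125 bases) were 91.7% identical over aligned bases, and 84 of the 1076 windows of 50 bases in OPR2 also occurred in OPR1. A stretch of 60 coding bases near the middle is given to show how far apart the copies are, with capitals where OPR2 differs from OPR1.
OPR1, chr1:28777679-28777738, plus strand: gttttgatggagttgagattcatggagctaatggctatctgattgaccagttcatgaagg
OPR2, chr1:28779763-28779822, plus strand: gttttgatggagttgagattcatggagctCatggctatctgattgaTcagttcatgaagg
OPR2 also overlaps AT1G76700 on the other strand, and reads there cannot be told apart if strand was not used in counting. AER was 94.5% identical to AT5G16980, 93.1% to AT5G17000 and 92.3% to AT5G16990, and shared 51, 91 and 14 windows of 50 bases with them. The next stretch compares them in the same way, with capitals where a copy differs from AER.
AER, chr5:5577022-5577081, minus strand: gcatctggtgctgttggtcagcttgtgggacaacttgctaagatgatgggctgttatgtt
AT5G16980, chr5:5579927-5579986, minus strand: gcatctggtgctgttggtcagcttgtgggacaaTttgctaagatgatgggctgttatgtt
AT5G16990, chr5:5582677-5582736, minus strand: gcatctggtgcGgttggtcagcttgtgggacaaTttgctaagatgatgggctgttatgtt
AT5G17000, chr5:5585799-5585858, minus strand: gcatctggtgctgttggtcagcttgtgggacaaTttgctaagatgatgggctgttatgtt
Values of OPR1, OPR2, AER and these relatives of AER are therefore uncertain to the extent that reads from such stretches were assigned to a neighbour. AKR4C8 and AKR4C9 were 69.3% identical and shared none of 899 windows.

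Values are normalised counts, which are gene counts divided by a size factor per library. Library totals, recovered from the table by taking each library's lowest value as 1 read (which may stand for none), were 0.246 to 26.0 M in shoots (median 14.5 M) and 0.128 to 22.5 M in roots (median 10.3 M). The libraries under 0.5 M were roots EtOH 0 h replicate 1, roots EtOH 3 h replicate 1, shoots EtOH 12 h replicate 2, shoots EtOH 24 h replicate 3 and shoots t-chalcone 24 h replicate 2. Several results that they touch are also given without them. Replicate numbers used here follow the order of the samples within each group and are not labelled. The 7 leaf markers summed to 110500 or more in each shoot library and to 4378 or less in each root library. The 7 root markers summed to 39410 or more in each root library and to 8842 or less in each shoot library, a sum made up mostly of PYK10. The root marker SCR was at about the same level in both tissues (medians of 274 in roots and 280.2 in shoots), and 5 of the 7 had medians over 10 in shoots. Whether replicates came from separate cultures is not labelled, so p-values reflect only the variation among the libraries at hand, and that may be technical. Tests were made with limma on log2(value + 1), and adjusted p-values are those of Benjamini and Hochberg over all genes tested, with a threshold of 0.05.

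In roots, 4 of the 5 genes passed the test at 1, 3 or 6 h. OPR1, AER and AKR4C9 rose at 1 h, OPR1, AER and AKR4C8 rose at 3 h, and OPR1 and AER rose at 6 h, each by the test across all genes. None of the 5 passed it at 12 or 24 h. These 8 called differences, of 25 tested, were all higher with t-chalcone. Of all 19835 genes tested in roots, 1.57% (1 h), 10.3% (3 h), 0.378% (6 h), 0.0252% (12 h) and 0.0605% (24 h) were called higher. The share among the 5 was above that background at 1, 3 and 6 h. Since the 5 were chosen with earlier results of these data known, this excess is not independent support. None of the 5 was called lower, whereas 3.04%, 3.26%, 0.0706%, 0.00504% and 1.85% of genes were in the same order of times. The median log2 difference of all root genes was 0.15 at 3 h and -0.15 at 24 h, and effects at those times stand beside that shift. In bulk tissue a change in the share of cells of a type and a change in RNA per cell cannot be told apart.

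**Figure D2:**
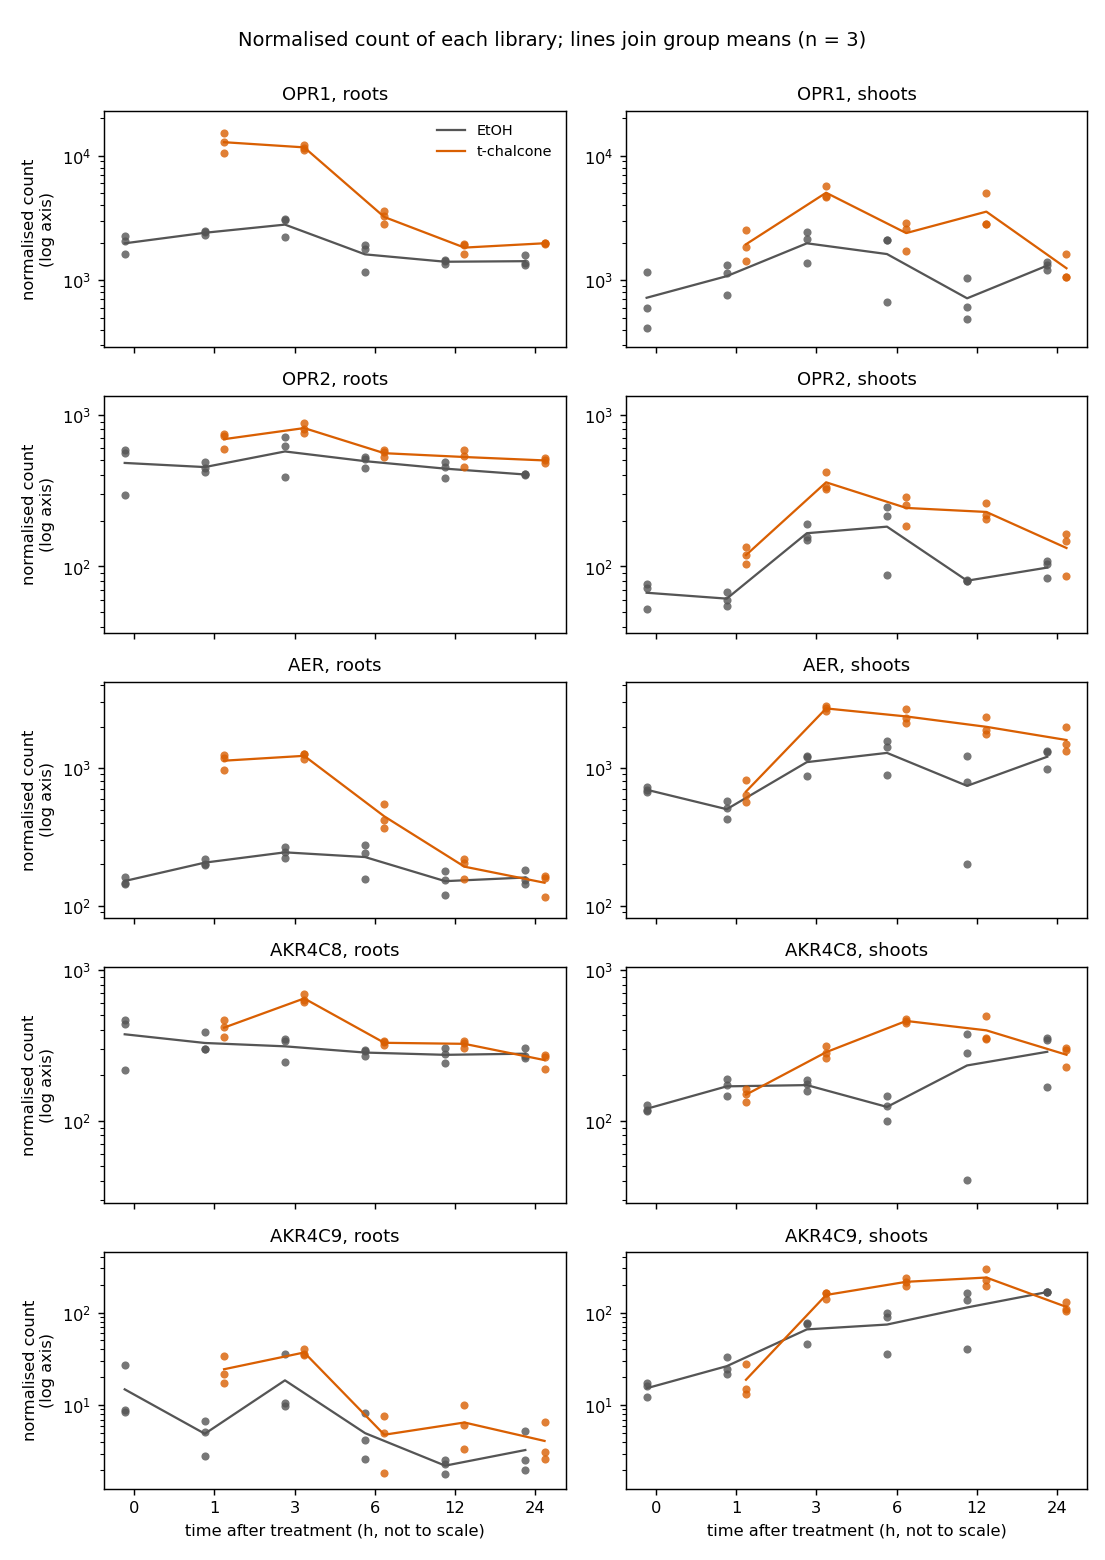
Normalised count on a log axis against time after treatment (h, not to scale) for each gene in roots (left) and shoots (right), with a point per library and lines joining group means of 3 libraries, EtOH grey and t-chalcone orange. OPR1 and AER in roots stand far above EtOH at 1 and 3 h, while in shoots most t-chalcone points lie above EtOH from 3 to 12 h.

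OPR1, the cytosolic oxophytodienoate reductase, was called at each of these times. In roots at 1 h its EtOH libraries read 2438, 2289 and 2478, and its t-chalcone libraries 15272, 10425 and 12828. All t-chalcone libraries stood above all EtOH libraries, a 5.35-fold difference of means and a log2 difference of 2.40 ± 0.16 (SE, n = 3 per group, limma adjusted p = 1.49e-11). At 3 h the EtOH libraries read 2222, 3063 and 3093, and the t-chalcone libraries 12214, 11156 and 11635. The groups were again apart, by 2.08 ± 0.16 on the log2 scale (limma adjusted p = 2.51e-10). The lowest of these EtOH values came from the library under 0.5 M, and without the low-depth libraries the difference was 1.92 (limma adjusted p = 1.39e-09). By 6 h the t-chalcone libraries had 3280, 3561 and 2804 counts against 1155, 1910.2 and 1766 in EtOH, still without overlap but with a log2 difference of 1.02 ± 0.16 (limma adjusted p = 0.00151). At 24 h the t-chalcone libraries, 2000.2, 1970.4 and 1963, remained above the EtOH libraries, 1315, 1362 and 1580.4, by 0.48 ± 0.16, which did not pass over all genes (limma adjusted p = 0.110). Without the low-depth libraries that difference was the same size and passed (limma adjusted p = 0.0262), where 0.924% of genes were called higher. The root t-chalcone libraries at 24 h all carry an S number in their description and hold 0.866, 1.83 and 2.19 M recovered reads. The root EtOH libraries at 24 h carry index sequences and hold 14.3, 11.6 and 9.3 M. In roots at 24 h, treatment therefore cannot be told apart from the kind of description or from depth, for any gene.

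AER, which saturates the double bond of unsaturated carbonyls, was also called at 1, 3 and 6 h. Its root EtOH libraries at 1 h read 201, 199 and 217, and its t-chalcone libraries 1194, 964 and 1238. The groups did not overlap, and the log2 difference was 2.45 ± 0.19 (limma adjusted p = 1.32e-10), or 5.51-fold between means. At 3 h the values were 247, 265 and 221 in EtOH and 1155, 1264.3 and 1264.4 in t-chalcone. This was a log2 difference of 2.33 ± 0.19 (limma adjusted p = 5.18e-10), again with the groups apart, and 2.34 without the low-depth library. At 6 h it was 1.00 ± 0.19 (limma adjusted p = 0.0062), with t-chalcone libraries at 548, 419.9 and 369.8 above EtOH libraries at 157, 278 and 242. The 6 h call ended without EtOH replicate 1 (0.76, limma adjusted p = 0.148) or without t-chalcone replicate 1 (0.84, limma adjusted p = 0.0874). At 12 and 24 h the groups overlapped, and the differences were 0.35 ± 0.19 and -0.13 ± 0.19 (limma adjusted p = 0.699 and 0.764).

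OPR2, the tandem partner of OPR1, was not called in roots at any time. At 1 h its root libraries read 422, 445 and 489.8 in EtOH and 728, 597 and 747 in t-chalcone. The groups were apart, but the log2 difference of 0.61 ± 0.19 did not pass over all genes (limma adjusted p = 0.071), and it passed without the low-depth libraries (limma adjusted p = 0.000288), where 2.91% of genes were called higher at 1 h. At 3 h the EtOH libraries read 388, 621 and 710.5 and the t-chalcone libraries 810.2, 882 and 759. The difference was 0.55 ± 0.19 (limma adjusted p = 0.0526) and 0.30 without the low-depth EtOH library (limma adjusted p = 0.147).

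Among the aldo-keto reductases, AKR4C8 was higher in roots at 3 h. Its libraries read 247, 340.2 and 347 in EtOH and 629, 696 and 616 in t-chalcone, without overlap. The log2 difference was 1.07 ± 0.19 (limma adjusted p = 0.000308), and 0.91 without the low-depth library (limma adjusted p = 1.36e-05). AKR4C9, its chloroplast relative, was near the detection limit in roots, with 5.11, 6.83 and 2.81 in EtOH and 17.5, 21.9 and 33.9 in t-chalcone at 1 h. These came from 7 to 20 recovered reads in EtOH and 58 to 95 in t-chalcone, the groups did not overlap, and the log2 difference was 2.12 ± 0.52 (limma adjusted p = 0.0114). The call ended without EtOH replicate 3 (1.83, limma adjusted p = 0.0914) or t-chalcone replicate 3 (1.86, limma adjusted p = 0.0763). At 3 h its t-chalcone libraries read 40.2, 35.9 and 35.2 and its EtOH libraries 35.3, 10.5 and 9.83. The first of these EtOH values was 1 recovered read in the library under 0.5 M. The difference was 1.20 ± 0.52 with it (limma adjusted p = 0.118) and 1.77 without the low-depth libraries (limma adjusted p = 0.0148), where 5.47% of genes were called higher at 3 h. In that root fit AKR4C9 reached the filter value of 10 only with t-chalcone at 1 and 3 h and in EtOH replicate 2 at 3 h. It was thus tested there only through the groups where it was high, and its root calls in that fit depend on this. With all libraries it also reached 10 in EtOH replicate 1 at 0 h and at 3 h, each from 1 recovered read in a library under 0.5 M.

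Without the libraries under 0.5 M, 11 of the 25 root differences were called, which added OPR2 at 1 h, AKR4C9 at 3 h and OPR1 at 24 h. The AKR4C9 calls in that fit carry the filter limit given above. In that fit 0.976% of genes were called higher at 6 h, when OPR1 and AER were. Without a test, 4 of the 5 genes had every t-chalcone root library above every EtOH library at 1 h, against 11.7% of all genes. The later counts were 4 against 24.2% (3 h), 4 against 9.19% (6 h), 3 against 4.27% (12 h) and 2 against 5.48% (24 h). No gene of the 5 had all root t-chalcone libraries below EtOH at any time, and the share of all genes that did was not counted.

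In shoots the calls fell at 6 and 12 h. AKR4C8 and AKR4C9 rose at 6 h and OPR1, OPR2 and AER at 12 h, which made 5 called differences of 25, all higher with t-chalcone. None of the 5 passed at 1, 3 or 24 h. Of all 22884 genes, 0.0262% (1 h), 0.0306% (3 h), 0.669% (6 h), 0.516% (12 h) and 0.533% (24 h) were called higher in shoots. The share among the 5 was above that background at 6 and 12 h, with the same limit from how the 5 were chosen. None of the 5 was called lower, whereas 0.0218%, 0.00437%, 0.883%, 0.245% and 0.612% of genes were in the same order of times. Without the 3 shoot libraries under 0.5 M, 11 of the 25 were called, namely all 5 genes at 3 h, AER, AKR4C8 and AKR4C9 at 6 h, and OPR1, OPR2 and AER at 12 h. In that fit 1.63% (3 h), 15.4% (6 h) and 1.97% (12 h) of genes were called higher.

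At 3 h every gene of the 5 had its t-chalcone shoot libraries above its EtOH libraries, against 10.6% of all genes. OPR1 read 2418, 2130.0 and 1381 in EtOH and 5738, 4677 and 4702 in t-chalcone. AER read 1206, 1231 and 879 in EtOH and 2833, 2595 and 2717 in t-chalcone. AKR4C9 read 76.5, 75.9 and 45.2 in EtOH and 140.5, 162.5 and 162 in t-chalcone. The log2 differences at 3 h ran from 0.72 ± 0.45 for AKR4C8 to 1.38 ± 0.39 for OPR1, with limma adjusted p from 0.233 for OPR2 to 1.000 for AKR4C8. Without the low-depth libraries the adjusted p ran from 0.000183 for AER to 0.0299 for OPR1, with the same log2 differences, since the libraries left out belong to other times, and only the pooled spread and the genes tested changed. At 1 h, OPR1 and OPR2 had all t-chalcone libraries above EtOH, against 10.1% of all genes, and their differences were 0.85 ± 0.39 and 0.94 ± 0.29 (limma adjusted p = 1.000 and 0.750).

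At 6 h the aldo-keto reductases stood out in shoots. AKR4C8 read 99.7, 125 and 146 in EtOH and 469, 448 and 459 in t-chalcone. The groups were far apart, by 1.90 ± 0.45 on the log2 scale (limma adjusted p = 0.0199), or 3.71-fold between means. AKR4C9 read 35.7, 89.3 and 97.9 in EtOH and 238, 195 and 211 in t-chalcone, a log2 difference of 1.64 ± 0.38 without overlap (limma adjusted p = 0.0185). The AKR4C8 call ended without any 1 of these 6 libraries (limma adjusted p from 0.051 to 0.138), and the AKR4C9 call ended without EtOH replicate 1, which left 1.19 (limma adjusted p = 0.265), or without any t-chalcone replicate. AER was also apart at 6 h, by 0.91 ± 0.37 (limma adjusted p = 0.341), and OPR1 and OPR2 overlapped their controls. At this time 3 of the 5 genes had groups apart, against 23.5% of all genes.

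At 12 h OPR1 read 612, 486 and 1044 in EtOH and 5008, 2825 and 2821 in t-chalcone in shoots. This was a log2 difference of 2.33 ± 0.39 (limma adjusted p = 0.00243), 4.98-fold between means and without overlap, and it also passed without the low-depth library (limma adjusted p = 0.00413). OPR2 read 80.3, 81.0 and 80.6 in EtOH and 264, 206 and 217 in t-chalcone, which differed by 1.49 ± 0.29 (limma adjusted p = 0.00798). The middle of these EtOH values rested on 2 recovered reads. AER read 799, 202 and 1228 in EtOH and 2333, 1757 and 1897 in t-chalcone, a difference of 1.76 ± 0.37 (limma adjusted p = 0.0134). The value of 202 came from the library of 0.246 M, and without it the AER difference was 1.00 (limma adjusted p = 0.0051). In that library AKR4C8 and AKR4C9 stood at its lowest value, 40.5, so their differences at 12 h, 1.26 and 1.27 with it (limma adjusted p = 0.124 and 0.102), were 0.27 and 0.65 without it (limma adjusted p = 0.408 and 0.317). Without t-chalcone replicate 1, the highest for all 5 genes at 12 h, the calls of OPR1, OPR2 and AER ended (2.06, 1.38 and 1.64, limma adjusted p = 0.0524, 0.0957 and 0.132). At 12 h 4 of the 5 genes had groups apart, against 11.8% of all genes.

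At 24 h no shoot difference passed. AKR4C9 alone had all its t-chalcone libraries, 131, 104 and 109.9, below its EtOH libraries, 166.3, 166.0 and 168, a log2 difference of -0.54 ± 0.38 (limma adjusted p = 0.780), and -0.47 without the low-depth library of each group (limma adjusted p = 0.416). None of the 5 genes had all t-chalcone libraries above EtOH, against 5.41% of all genes. The share of all genes with all t-chalcone libraries below EtOH was not counted, so AKR4C9 has no background beside it.

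**Figure D3:**
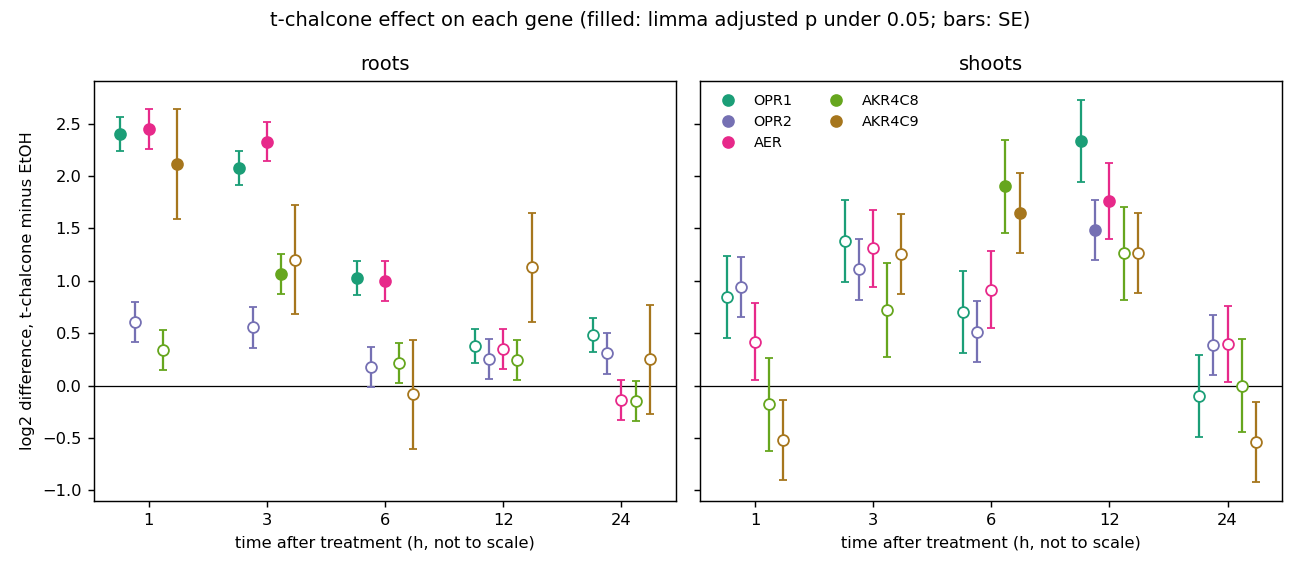
Log2 difference between t-chalcone and EtOH for each gene against time (h, not to scale) in roots and shoots, with bars of 1 SE from limma and filled points where the adjusted p was under 0.05. The filled points fall at 1 to 6 h in roots and at 6 and 12 h in shoots.

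Whether these courses differed was tested on the effects themselves. In roots the effect differed between the 5 times for OPR1 (limma F test, adjusted p = 1.62e-07), AER (adjusted p = 4.25e-08) and AKR4C8 (adjusted p = 0.033), where 8.21% of all genes were called. In shoots it did so for AKR4C9 (limma F test, adjusted p = 0.0171), where 2.68% were called. The test was not passed by the other 6 gene and tissue pairs, among them OPR1 in shoots (limma adjusted p = 0.074). Between tissues, 2 of 25 differences in effect passed. The effect on AER at 1 h was larger in roots than in shoots by 2.03 ± 0.42 on the log2 scale (limma adjusted p = 0.0219). The effect on OPR1 at 12 h was larger in shoots, with roots minus shoots at -1.96 ± 0.43 (limma adjusted p = 0.0295). Of all genes, 0.118% (1 h), 0.0655% (3 h), 0.201% (6 h), 0.149% (12 h) and 1.31% (24 h) were called in either direction. At 1 and 12 h the share among the 5 was above that background, again for genes chosen with earlier results known. AKR4C9 at 1 h, 2.64 ± 0.64, missed the threshold (limma adjusted p = 0.0758).

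These counts changed with depth. Without the libraries under 0.5 M, the effect differed between times for 7 of 10 gene and tissue pairs, adding AKR4C9 in roots, where 16.8% of genes were called, and AER and AKR4C8 in shoots, where 33.4% were. AKR4C9 entered that root fit only through the groups where it was high. Without the low-depth libraries 8 of the 25 tissue differences passed. OPR1, AER and AKR4C9 at 1 h and AER at 3 h had larger effects in roots, where 0.777% and 2.85% of genes were called in that direction. AKR4C8 and AKR4C9 at 6 h, at -1.69 and -1.73, and OPR1 and OPR2 at 12 h, at -1.72 and -1.23, had larger effects in shoots, where 4.46% and 0.723% were called. The AER difference at 1 h was lost without any 1 of 8 of its 12 libraries (1.91 to 2.07, limma adjusted p from 0.0504 to 0.106). The OPR1 difference at 12 h was lost without any 1 of 6 of its 12 (-1.99 to -1.68, limma adjusted p from 0.0646 to 0.188), and without shoots EtOH replicate 2, of low depth, it was -1.72.

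The tandem partners were compared within each library, as log2 ratios of value + 1. The OPR1 to OPR2 ratio was higher with t-chalcone in roots by 0.89 on the log2 scale on average over the 5 times (two-sided exact permutation test within times, p = 5e-06, adjusted over 6 ratio tests 3e-05, n = 3 per group and time). In root libraries it stood at 4.20 ± 0.16 with t-chalcone and 2.41 ± 0.10 in EtOH at 1 h (SD, n = 3), with the groups apart at 1, 3 and 6 h and overlapping at 12 and 24 h. In shoots the average difference was 0.15 (exact permutation p = 0.300, adjusted 0.556), over times that went opposite ways. The shoot groups were apart at 12 h, with t-chalcone higher by 0.85, and at 24 h, with a difference of -0.48, and they overlapped at 1, 3 and 6 h. Both of these times hold low-depth libraries.

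**Figure D4:**
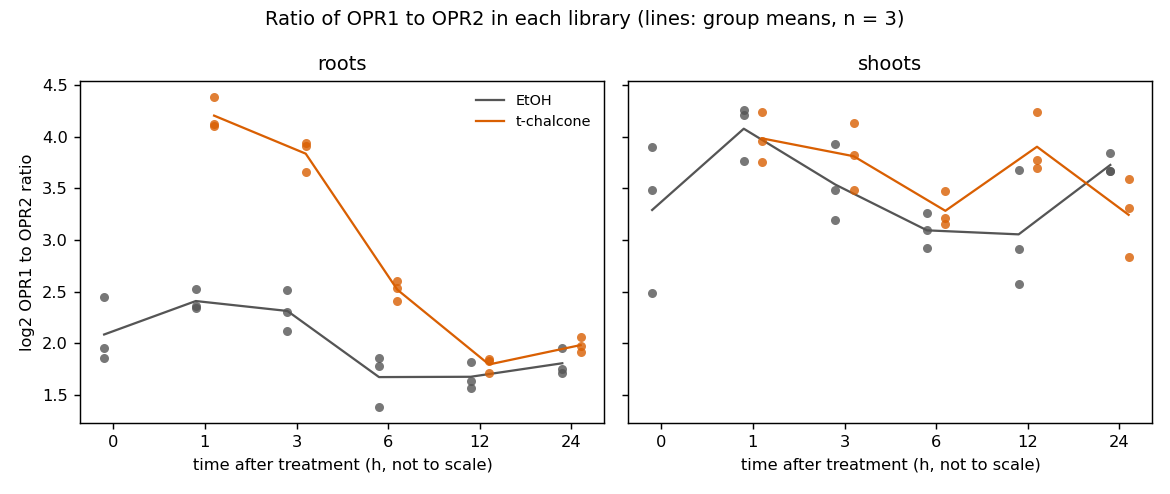
Log2 ratio of OPR1 to OPR2 in each library against time (h, not to scale), with lines joining group means of 3 libraries. In roots the t-chalcone libraries lie above EtOH at 1, 3 and 6 h, and in shoots the treatments overlap at 1, 3 and 6 h, with t-chalcone above at 12 h and below at 24 h.

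The ratio of AER to OPR1 differed by -0.07 in roots and -0.07 in shoots (exact permutation p = 0.416 and 0.626), which does not show that the genes responded alike. AKR4C9 to AKR4C8 was higher in roots by 0.58 (exact permutation p = 0.0412, adjusted 0.124), which did not hold after adjustment, and differed by -0.12 in shoots (exact permutation p = 0.463). The 6 ratio tests were added after the values had been seen.

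The same genes were not equally abundant in the control tissues. Per kb of coding sequence, OPR1 led in roots at 0 h with 1655 ± 272 normalised counts per kb, followed by OPR2 at 428 ± 142, AKR4C8 at 399.9 ± 147, AER at 146 ± 9.3 and AKR4C9 at 15.6 ± 11.1 (SD, n = 3). OPR2 and AKR4C8 did not differ beyond their spread. Replicate 1 of this group was of low depth, and its AKR4C9 value of 28.5 per kb was 1 recovered read, beside 9.01 and 9.40 in the others. In shoots at 0 h AER led with 671 ± 23.5, beside OPR1 at 604 ± 324, and AKR4C8 at 128 ± 6.3, OPR2 at 59.7 ± 11.5 and AKR4C9 at 16.1 ± 2.9 followed. OPR1 and AER in shoots did not differ beyond the spread of OPR1.

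**Figure D5:**
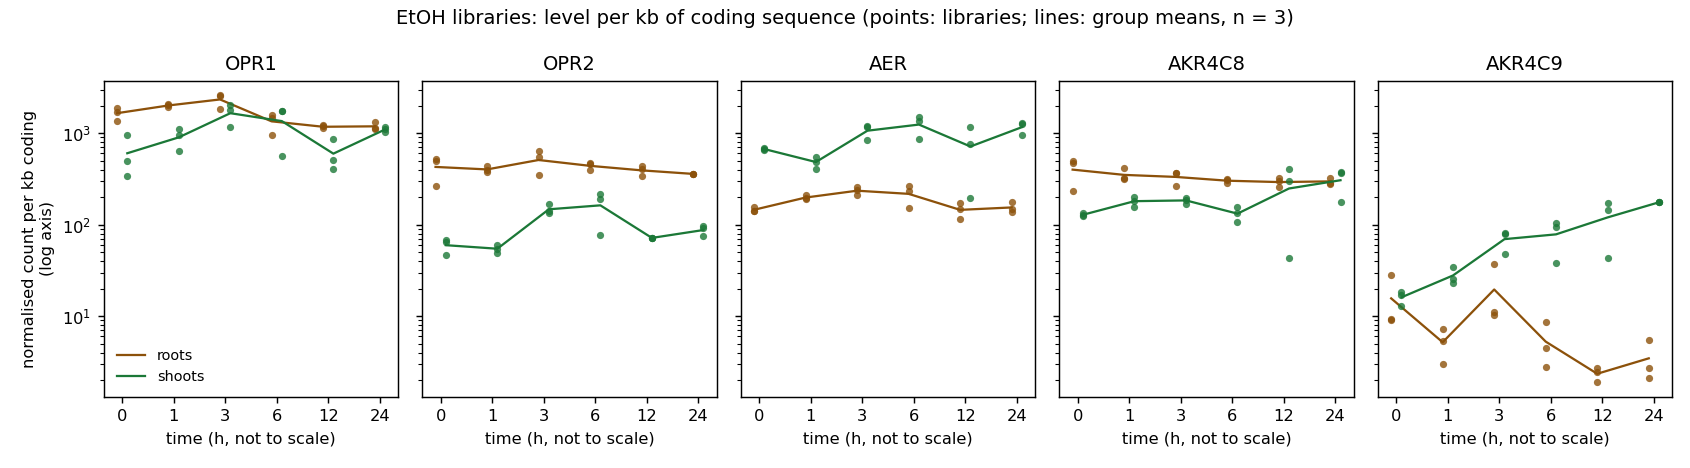
Normalised count per kb of coding sequence on a log axis against time (h, not to scale) in EtOH libraries, with roots brown, shoots green, a point per library and lines joining group means of 3 libraries. AER lies lower in roots at each time and AKR4C9 from 1 h on, OPR2 lies higher in roots at each time, and AKR4C9 is higher in shoots at 24 h than at 0 h.

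Roots and shoots were compared in EtOH at each of 6 times. OPR2 was higher in roots at all 6, by 1.56 to 2.86 on the log2 scale, and AER was lower in roots at all 6, by -2.90 to -1.28. AKR4C9 was lower in roots at the 5 times from 1 h on, by -5.37 to -1.98. OPR1 was higher in roots at 0, 1 and 12 h, by 1.05 to 1.57, and AKR4C8 at 0, 1, 3 and 6 h, by 0.84 to 1.55. The AKR4C8 call at 3 h ended without any 1 of 5 of its 6 libraries (limma adjusted p from 0.0649 to 0.111), and that at 1 h ended without shoots replicate 3 or roots replicate 1 (limma adjusted p = 0.0835 and 0.0919). At 0 h AKR4C9 did not pass (-0.22, limma adjusted p = 0.710). Without the low-depth libraries AER at 12 h was -2.73 in place of -1.97, AKR4C9 at 12 h was -5.56 in place of -4.94, and AKR4C8 at 12 h, which was not called, was -0.26 in place of 0.74. These made 24 called differences of 30, against 50.1%, 43.7%, 46.7%, 43%, 54.3% and 46.8% of all genes called in either direction from the first time to the last.

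The control level itself differed between times for 7 of 10 gene and tissue pairs. These were OPR1, AER and AKR4C9 in roots, where 35.8% of genes were called by the F test, and OPR1, OPR2, AER and AKR4C9 in shoots, where 41.3% were called. AKR4C9 in shoots read 17.5, 16.0 and 12.2 at 0 h and 166.3, 166.0 and 168 at 24 h (limma F test over times, adjusted p = 4.2e-07). OPR2 in shoots read 72.6, 76.5 and 52.3 at 0 h, 157, 189.9 and 149.9 at 3 h and 103, 108 and 83.8 at 24 h (adjusted p = 0.0002). Without the libraries under 0.5 M all 10 pairs passed, where 42.5% of genes in roots and 79.2% in shoots were called. AKR4C9 in roots entered that fit only through the groups where it was high.

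Over the 11 groups of a tissue, OPR1 in roots ran from 1405 in EtOH at 12 h to 12842 with t-chalcone at 1 h. Ordered by mean, 8 of its 10 neighbouring pairs of groups overlapped, and the gaps lay below t-chalcone at 3 h and below EtOH at 1 h. AER in roots ran from 147 to 1228, with gaps on both sides of t-chalcone at 6 h. AKR4C8 in shoots ran from 120.1 in EtOH at 0 h to 459 with t-chalcone at 6 h, and all 10 of its neighbouring pairs overlapped.

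Other genes of carbonyl reduction and aldehyde oxidation were counted from a list of 43, of which 40 were in the table and 36 were tested in roots. In roots 5 of the 36 were higher and 2 lower at 1 h, and 8 higher and 1 lower at 3 h. Later counts were 2 higher (6 h), none (12 h) and 2 lower (24 h). The shares of all root genes were 1.57% (1 h), 10.3% (3 h) and 0.378% (6 h) higher, and 3.04% (1 h), 3.26% (3 h) and 1.85% (24 h) lower. The counts of lower genes at 1 and 3 h were near those shares. The list's median log2 difference was -0.05 at 1 h and 0.21 at 3 h, beside -0.01 and 0.15 over all genes. Those that were higher at 1 h were 3 relatives of AER and 2 aldo-keto reductases. AT1G60750, an aldo-keto reductase, read 54.6, 71.4 and 60.6 in EtOH and 1056, 767 and 868 in t-chalcone, a log2 difference of 3.83 ± 0.29 (limma adjusted p = 9.35e-11). AT5G16980, the neighbour of AER, read 9.82, 6.15 and 3.61 in EtOH and 77.5, 73.7 and 76.8 in t-chalcone, a difference of 3.44 ± 0.61 (limma adjusted p = 0.000279). AT5G16960 differed by 2.87 ± 0.69 and AT5G17000 by 1.61 ± 0.30 (limma adjusted p = 0.00909 and 0.000458), and AT5G16990 by 0.09 ± 0.27 (limma adjusted p = 0.999). How many reads of AER were assigned to AT5G16980 or AT5G17000, which share stretches with it, was not tested. The lower genes at 1 h were AT5G62420, an aldo-keto reductase, by -1.44 ± 0.39 (limma adjusted p = 0.0256), and ALDH2C4, an aldehyde dehydrogenase of phenylpropanoid metabolism, by -0.82 ± 0.17 (limma adjusted p = 0.00256).

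At 3 h in roots the leading genes of the list were AT1G60750 at 3.50 ± 0.29 (limma adjusted p = 5.18e-10), AT5G16980 at 2.65 ± 0.61 (limma adjusted p = 0.00393; 3.39 without the low-depth library, limma adjusted p = 4.56e-06), AT1G17990 of the OPR family at 2.37 ± 0.38 (limma adjusted p = 6.76e-05) and AT1G60730 at 1.46 ± 0.13 (limma adjusted p = 2.63e-09). ALDH7B4, which oxidises aldehydes under stress, was also higher, by 1.08 ± 0.16 (limma adjusted p = 3.02e-05). OPR3, the jasmonate enzyme, differed by -0.14 ± 0.19 at 1 h and -0.18 ± 0.19 at 3 h (limma adjusted p = 0.999 and 0.553). At 6 h AT1G60750 and AT1G60730 were still higher, by 1.48 ± 0.29 and 0.65 ± 0.13 (limma adjusted p = 0.00688 and 0.00959). At 24 h AT1G17990 was lower by -1.46 ± 0.38 and AT3G04000 by -1.62 ± 0.34 (limma adjusted p = 0.0373 and 0.0125).

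In shoots, where 40 of the list were tested, 1 was higher and 1 lower at 6 h, 1 was higher at 12 h, and 1 was higher and 1 lower at 24 h. The shares of all shoot genes were 0.669% (6 h), 0.516% (12 h) and 0.533% (24 h) higher, and 0.883% (6 h) and 0.612% (24 h) lower. The list's median was 0.09 at 6 h and 0.32 at 12 h, beside 0.01 and 0.09 over all genes. AT5G16980 was the gene higher at 6 and 12 h, by 1.66 ± 0.38 and 2.01 ± 0.38 (limma adjusted p = 0.0179 and 0.0074). Here too, how many AER reads were assigned to it was not tested. ALDH7B4 was the one higher at 24 h, by 1.31 ± 0.19 (limma adjusted p = 0.000304), a time at which none of the 5 reductases was called. ALDH11A3, a non-phosphorylating glyceraldehyde phosphate dehydrogenase, was the one lower at 6 and 24 h, by -0.64 ± 0.14 and -0.58 ± 0.14 (limma adjusted p = 0.0155 and 0.0406). Without the libraries under 0.5 M, 33 genes of the list were tested in shoots, and the counts were 6 higher and 1 lower (3 h), 6 higher and 1 lower (6 h), 4 higher (12 h) and 2 higher and 4 lower (24 h). That fit called 1.63% (3 h), 15.4% (6 h), 1.97% (12 h) and 6.08% (24 h) of all shoot genes higher, so the counts at 6 and 24 h were near the background. It called 5.21% (3 h), 7.73% (6 h) and 6.68% (24 h) of them lower, and the counts of lower genes at 3 and 6 h did not exceed those shares. At 1 h it called 1 of the list higher, where 0.282% of genes were. In roots it called 7 higher and 3 lower of 35 at 1 h, 8 higher and 1 lower at 3 h, 3 higher at 6 h and 6 lower at 24 h. The shares of all root genes were 2.91% (1 h), 5.47% (3 h) and 0.976% (6 h) higher, and 5.9% (1 h), 3.07% (3 h) and 11.9% (24 h) lower. The count of lower genes at 3 h was near its share.

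Regulators linked to detoxification genes were read from a list of 8. The NAC transcription factors ANAC032, ANAC102, ATAF1 and ATAF2 were all higher in roots at 1 h, by 1.07 to 1.33 on the log2 scale, and at 3 h, by 1.03 to 1.59. The list's median was 0.65 and 0.87 at these times, beside -0.01 and 0.15 over all genes. Of all root genes, 1.57% (1 h) and 10.3% (3 h) were called higher. ANAC032 read 158, 209.96 and 197 in EtOH and 522, 451 and 448 in t-chalcone at 1 h in roots, without overlap (limma adjusted p = 0.025). In shoots ANAC032 was higher at 6 h, by 1.30 ± 0.31 (limma adjusted p = 0.0253), and ANAC102 at 12 h, by 1.65 ± 0.37 (limma adjusted p = 0.0236). The shares of all shoot genes called higher were 0.669% (6 h) and 0.516% (12 h). Without the libraries under 0.5 M the ANAC032 difference in roots at 3 h was 0.88 (limma adjusted p = 0.00797) in place of 1.59, and that of ANAC102 in shoots at 12 h was 0.91 (limma adjusted p = 0.00917). The bZIP factors TGA2, TGA5 and TGA6 did not pass at any time in either tissue, with or without those libraries. SCL14, their partner, passed only without them, in roots at 3 h (0.37, limma adjusted p = 0.0297) and at 24 h (-0.29, limma adjusted p = 0.0462). That fit also called ANAC032 lower in roots at 24 h (-0.67, limma adjusted p = 0.0244). In shoots at 3 h it called all 4 NAC genes higher, by 0.75 to 1.03 (limma adjusted p from 0.000996 to 0.0436), and at 6 h ANAC032, ANAC102 and ATAF1. Of all shoot genes it called 1.63% (3 h), 15.4% (6 h) and 1.97% (12 h) higher. Of all root genes it called 5.47% higher at 3 h and 11.9% lower at 24 h. With all libraries the differences of TGA2, TGA5, TGA6 and SCL14 in roots at 1 h lay between -0.14 and 0.24.

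The genes with the most similar course were found by Pearson's r over the 10 log2 differences between t-chalcone and EtOH, 5 per tissue, among 7313 genes with a symbol and a mean of at least 50. These correlations describe points that share libraries within a tissue, and no p is given. Genes close to OPR1 included CYP89A5 (r = 0.943) and ABCA7 (0.927), and AER was nearest to Plsp2A (0.967), GSTU19 (0.959) and ABCA7 (0.951). OPR2 was nearest to APK2B (0.943), GSTU1 (0.899) and RSH2 (0.895). AKR4C8 was nearest to PAO3 (0.955), GBF6 (0.955) and CAX3 (0.905), and AKR4C9 to ABCG40 (0.933), CAX7 (0.911) and ACHT2 (0.893). These courses include the libraries under 0.5 M. The shoot points of AKR4C8 and AKR4C9 at 12 h, 1.26 and 1.27, were 0.27 and 0.65 without them, and AKR4C9 in roots was near the detection limit. Similarity without those libraries was not computed. Among the 5 reductases Pearson's r was 0.912 for OPR1 with AER, 0.659 for AKR4C8 with AKR4C9, 0.564 for OPR1 with OPR2 and 0.238 for OPR2 with AKR4C9. Over the 5 points of roots and of shoots, r was 0.977 and 0.909 for OPR1 with AER, and 0.412 and 0.927 for AKR4C8 with AKR4C9. In the same order it was 0.88 and 0.954 for OPR1 with OPR2, and 0.83 and 0.352 for OPR2 with AKR4C9.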

How the data were processed

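The deposited values have the unit of a signal: gene counts that the authors divided by a size factor per library. The submitters' processing notes name DESeq2 1.14.1 and TAIR10. Which aligner and counter were run, and whether strand was used, was not given in the sources used here. No value was 0, so a gene at a library's lowest value cannot be told from one without reads. All values were whole multiples of their column's lowest value within 0.01, and these whole numbers served as reads. This takes the lowest value as 1 read; whether 1 was added before normalization is not stated, and the totals hold only so far as no other factor per library was applied. Each pair of identical 0 h columns was kept once.

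Limma 3.58.1 (R 4.3.3) was fitted per tissue with a mean-variance trend on log2(value + 1), with 1 mean per group over 33 libraries, keeping genes of at least 10 in at least 3 libraries (19835 in roots; all 22884 in shoots, since 3 low-depth libraries have lowest values above 10). Differences are on that scale and understate changes of low genes; p-values are two-sided. Tissues were compared in a joint fit of 66 libraries. edgeR 4.0.16 and DESeq2 1.42.0 on recovered reads, other pseudocounts and filters, array weights and left-out libraries were alternatives. Limma and edgeR were also run on simulated counts, with the same dispersion for all genes and, apart from planted changes, constant means within a tissue. The data differ from that setting, so those runs do not measure the error of the calls here. Sequences were read from RefSeq's TAIR10.1 by locus tag (5 of 5 matched), and levels per kb use the longest annotated coding sequence. All 5 genes were named in each comparison; of listed genes, the called ones were named, up to 4 by size per tissue and time, and in roots OPR3, AT5G16990, AT5G62420 and ALDH2C4 at 1 h and ALDH7B4 at 3 h were added after their values were seen. The members and lists were chosen with earlier results of these data known. A gene that the rule on similar courses names is not reported here.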

Additional observations from a re-analysis of the deposited data

Results flagged for a closer look

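The effect of t-chalcone differed between tissues for AER at 1 h, by 2.03 on the log2 scale in roots minus shoots, and for OPR1 at 12 h, by -1.96, each by a limma test of the difference. In roots the effect also differed between the 5 times, by limma's F test, for OPR1 (adjusted p = 1.62e-07), AER (adjusted p = 4.25e-08) and AKR4C8 (adjusted p = 0.033). In shoots it did so for AKR4C9 (adjusted p = 0.0171). Groups of 3 libraries are too small for a test of single outlying libraries.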

How the results depend on the processing

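For single genes, 1865 alternative values kept direction and side of the threshold, 96 now passed it, 44 no longer did, 66 changed sign without a call in either setting and 1 changed sign with a call. The last was AKR4C8 in EtOH at 24 h, roots minus shoots, at -0.32 without the libraries under 0.5 M. That setting also changed the sign, without a call, of AKR4C8 at 12 h in the same comparison (-0.26) and of the tissue difference in effect on AKR4C9 at 3 h (0.51) and 12 h (0.48). Calls in roots stayed between 7 and 9 of 25 with any 1 library left out, and tissue differences in EtOH between 23 and 25 of 30. Shoot calls ran from 2 to 7 and tissue differences in effect from 1 to 5. Without the libraries under 0.5 M there were 11 shoot calls, 8 tissue differences and 7 time differences of 10. Array weights, whose estimation did not fully converge, gave 13, 7 and 9. edgeR gave 11 shoot calls and 6 tissue differences, and 11 and 7 without the libraries under 0.5 M, a setting chosen after seeing the data. DESeq2 gave 10 and 6, and fits of only the 2 groups gave 8 shoot calls, without those of OPR1, OPR2 and AER at 12 h (limma adjusted p = 0.663 each). Without the 7 libraries whose description carries an S number 1 tissue difference remained, and roots at 24 h could not be fitted. The AKR4C9 to AKR4C8 ratio fell to 0.16 in roots with a pseudocount of 10 (exact permutation p = 0.304) and was 0.013 in shoots without low-depth libraries. The causes of these shifts were not tested. Depth limits AKR4C9 in roots, where 1 recovered read stood for up to 35.3 normalised counts. No paired analysis was possible because the labels carry no replicate numbers.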
